A study of Mus musculus with 6 samples.

Results

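The genes described here are 7 genes of zinc handling in mouse muscle satellite cells: the metallothioneins Mt1, Mt2 and Mt3, the zinc-sensing transcription factor Mtf1, the zinc exporter Slc30a1 and the zinc importers Slc39a10 and Slc39a14. They were taken by symbol from 24067 symbols listed in both expression tables, and all 7 were found. These genes were selected on their FPKM values in the 4 expression columns, so their levels and ratios are given as a description and support no test. Satellite cells are the resident stem cells of skeletal muscle. RNA came from 4 libraries: freshly isolated satellite cells (FISC) and activated satellite cells cultured for 36 h (ASC), each as a wild-type library (WT) and a library labelled Yy1 iKo, written iKO below. All were polyA RNA of adult satellite cells from muscle, and the growth medium was F10 with FBS and pen/strep. The study also made a YY1 immunoprecipitation library and an input library from ASC labelled C57. The labels used here give no age, no sex, no promoter or Cre behind the knockout and no number of pooled animals. Each group is 1 library, which leaves every difference below without a replicate, an error or a p-value.

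Metallothioneins are small proteins rich in cysteine that bind zinc and copper in the cytoplasm and buffer their free level. When free zinc rises, MTF1 enters the nucleus and binds metal response elements (MRE) in the promoters of Mt1, Mt2 and Slc30a1, so that zinc is bound or exported. Proteins of the SLC39 family bring zinc into the cytoplasm, from outside the cell or from organelles, and proteins of the SLC30 family move it the other way. Metallothionein transcription also answers to glucocorticoids, oxidative stress and inflammatory cytokines, and SLC39A14, which carries iron and manganese as well as zinc, is known as an inflammation-induced importer in liver.

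The promoters of Mt1, Mt2 and Slc30a1 are shown because these genes are the textbook targets of MTF1 and differed widely in how their levels moved. Each line gives the 250 bases before the gene start in the RefSeq promoter table (build GRCm38.p6), 5′ to 3′ on the plus strand, which is the strand of all 3 genes. Capitals mark matches to the MRE letters TGCACNC or TGCGCNC on either strand, where N is any base.
Mt1, chr8:94178839-94179088: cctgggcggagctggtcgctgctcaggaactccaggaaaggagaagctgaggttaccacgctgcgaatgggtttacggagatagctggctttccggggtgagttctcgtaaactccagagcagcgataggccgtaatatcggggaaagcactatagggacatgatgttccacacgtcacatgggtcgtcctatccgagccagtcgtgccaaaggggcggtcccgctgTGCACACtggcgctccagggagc
Mt2, chr8:94172368-94172617: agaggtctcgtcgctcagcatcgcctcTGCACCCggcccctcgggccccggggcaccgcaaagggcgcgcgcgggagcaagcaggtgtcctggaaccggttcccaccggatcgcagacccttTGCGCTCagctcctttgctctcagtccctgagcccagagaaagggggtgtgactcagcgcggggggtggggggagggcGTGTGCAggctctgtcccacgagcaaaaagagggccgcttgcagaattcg
Slc30a1, chr1:191906531-191906780: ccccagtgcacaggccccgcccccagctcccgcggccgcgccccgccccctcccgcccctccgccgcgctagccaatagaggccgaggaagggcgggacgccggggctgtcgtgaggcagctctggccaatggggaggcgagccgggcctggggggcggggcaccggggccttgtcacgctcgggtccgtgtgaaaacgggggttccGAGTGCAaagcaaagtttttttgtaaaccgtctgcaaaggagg

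The search covered 300 bases, from 250 before to 50 after the start, on both strands. Mt2 held 4 MRE matches, 3 of them before the start, and Mt1 held 3, of which 1 lay before the start. The other 2 matches of Mt1 lay in a stretch from base 3 to base 27 after the start, chr8:94179091-94179115.
Mt1 after the start: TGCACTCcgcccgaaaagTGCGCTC
The start in the promoter table lies 206 bases downstream of the start in the RefSeq gene table for Mt1 and 84 bases downstream for Slc30a1. Before and after, and the number of matches, therefore hold for the promoter table's start alone. A window around another start could hold other matches. For Mt2 the starts are the same. Slc30a1 held 2 matches and Mt3 held 1. Mtf1 and both listed starts of Slc39a10 held none. At least 1 match was present in 25.7% of the 32851 promoter windows in the table, at least 2 in 7.11%, at least 3 in 1.97% and at least 4 in 0.517%. Antioxidant response element letters (TGACNNNGC) matched once in Mt2 and once in Slc30a1, and 12.4% of all windows held a match. In Mt2, Slc30a1 and the other windows, no antioxidant match overlapped an MRE match. The letters AANATGGC, a core of the YY1 motif, matched in none of the 7 windows and in 6.05% of all windows. Promoter windows were matched for 6 of the 7 genes, and Slc39a14 had no entry. A match is a run of letters and was not tested as a binding site, and starts elsewhere in a gene are not covered.

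**Figure D1:**
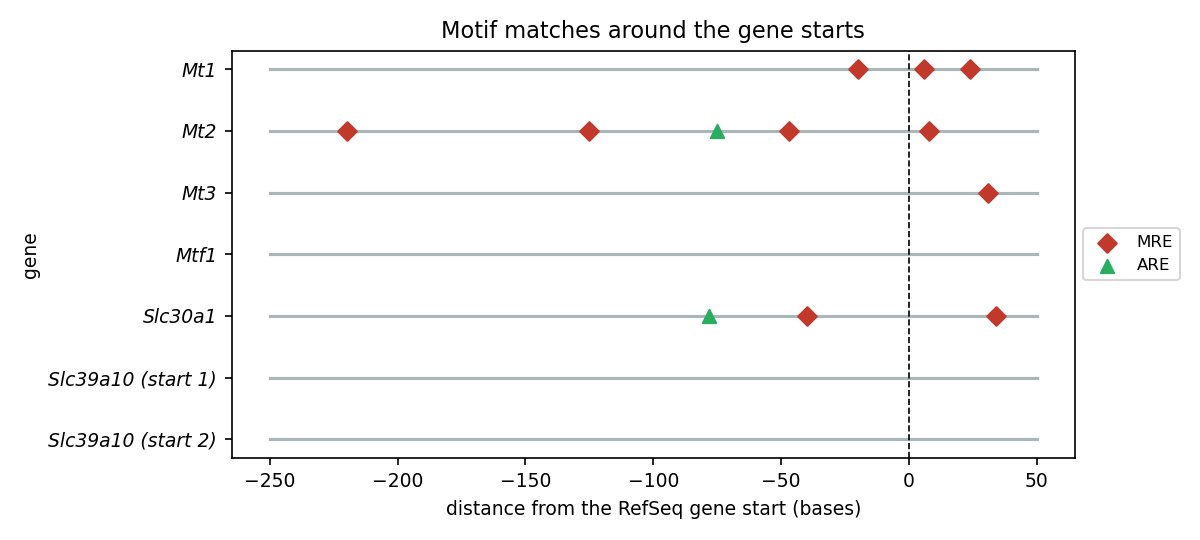
Position of MRE matches (red diamonds) and antioxidant response element matches (green triangles) on either strand, with 1 line per promoter window of 300 bases. Distances are in bases from the gene start in the RefSeq promoter table (dashed line). Mt2 has 4 MRE matches, Mt1 has 3, Slc30a1 has 2 and Mt3 has 1.

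Expression is given in FPKM, a fragment count scaled to transcript length and library size, so levels can be compared between genes within a library. FPKM carry no depth, and the low values gave only relative depth within a pair: the most common step was 1 iKO read per WT read in FISC and 0.67 in ASC. The ASC iKO library stood apart: the microRNA gene Mir762 took 39.8% of its FPKM sum. Yy1 itself was lower in each library labelled iKO, with 51.0 FPKM for WT against 20.1 for iKO in FISC and 55.2 against 2.03 in ASC. All 11 satellite cell markers were at 1 FPKM or more in the FISC libraries and in ASC WT, and 9 of 11 in ASC iKO. Their summed level ran from 3299 to 3519 FPKM in FISC and from 1210 to 1402 in ASC. Of the ASC sums, Myod1 alone gave 698 FPKM in WT and 598 in iKO. Fibroblast markers summed to between 463 and 528 FPKM in FISC and between 64.6 and 144 in ASC, and pericyte and smooth muscle markers to 229 and 230 in FISC and to 24.1 and 41.7 in ASC. Erythroid markers summed to between 418 and 532 FPKM in FISC. In ASC WT all 8 were listed at 0, and in ASC iKO 7 of 8 were. Endothelial markers summed to 22.4 FPKM in FISC WT, 18.6 in FISC iKO, 3.23 in ASC WT and 3.20 in ASC iKO. Of these sums, Tek alone gave 11.5, 9.97, 0.918 and 1.71 FPKM. Immune markers summed to 8.65, 11.97, 4.52 and 17.7 FPKM in the same order, with Ptprc between 0 and 0.116. In bulk RNA, fewer cells of a type and less RNA per cell cannot be told apart.

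Mt1 and Mt2 were among the most abundant messages of freshly isolated cells and among the genes with the lowest ratios after culture. Mt2 stood at 5662 FPKM in FISC WT and 4278 in FISC iKO, and at 11.1 FPKM in ASC WT and 42.8 in ASC iKO. It was the gene with the highest FPKM of FISC WT and ranked 3 in FISC iKO, against 6219 in ASC WT and 2445 in ASC iKO. Both fresh libraries were far above both cultured ones, and the ASC iKO library lay above the ASC WT library. Mt1 stood at 4314 FPKM in FISC WT, 3528 in FISC iKO, 65.2 in ASC WT and 78.1 in ASC iKO. Its rank was 4 and 6 in the FISC libraries and 1370 and 1460 in the ASC libraries. Together Mt1 and Mt2 made up 1.83% of the FPKM sum of FISC WT and 1.47% of that of FISC iKO. In ASC WT they made up 0.0151%, and in ASC iKO 0.0161% of the sum without Mir762.

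**Figure D2:**
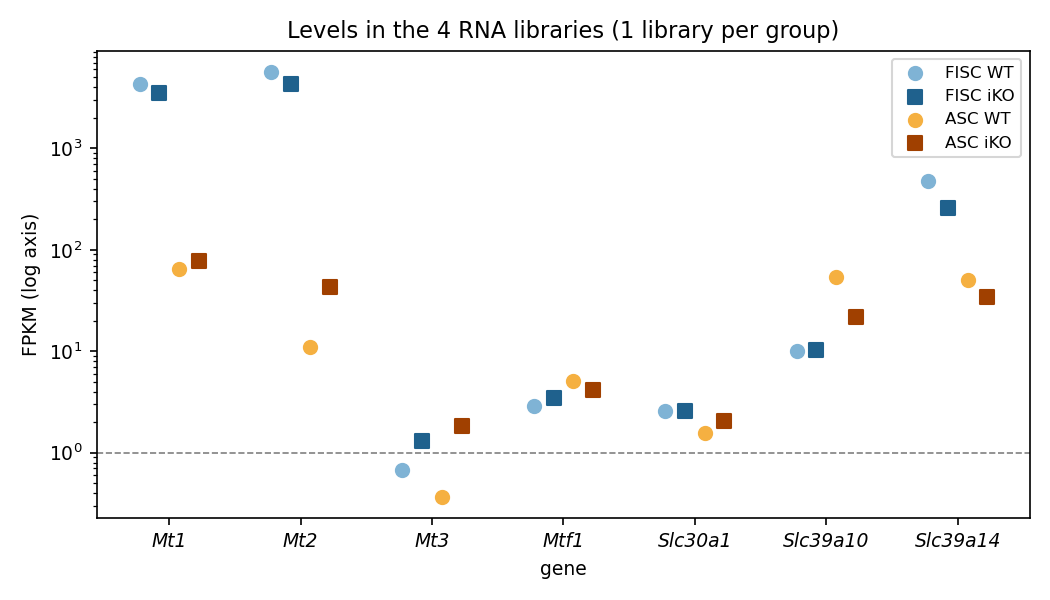
FPKM on a log axis for the 7 genes in the 4 RNA libraries, 1 point per library, with a dashed line at 1 FPKM. Mt1 and Mt2 stand at 3528 FPKM or more in the FISC libraries and at 78.1 or less in the ASC libraries, while Slc39a10 is highest in ASC WT.

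Ratios between libraries were taken as log2 of (FPKM + 1) over (FPKM + 1) for every gene that reached 1 FPKM in either library, called kept below. A gene was called higher or lower at a 2-fold ratio or more, which is a size limit and involves no test. FISC and ASC levels come from different tables whose normalization may differ, and ratios for activation therefore only describe these libraries. In WT, Mt2 was 469-fold lower in ASC than in FISC, a log2 ratio of −8.87 and rank 2 from the lowest of 11816 genes. Mt1 was 65.2-fold lower (log2 ratio −6.03, rank 48). In iKO, Mt2 was 97.8-fold lower (log2 ratio −6.61) and Mt1 44.6-fold lower (−5.48), ranks 16 and 57 from the lowest of 11797 genes. Across the alternative pseudocounts, filters, scalings and the centring on locus length, these log2 ratios stayed between −9.26 and −8.79 for Mt2 and between −6.42 and −5.94 for Mt1 in WT. Erythroid, fibroblast, pericyte, endothelial and satellite cell marker sums were also lower in ASC than in FISC, as given above. So were those of Schwann cell markers, at 125 FPKM in FISC WT, 105 in FISC iKO, 10.4 in ASC WT and 6.45 in ASC iKO. Adipocyte markers summed to 25.8, 34.3, 1.15 and 2.76 FPKM in the same order. The immune marker sum was lower in ASC in WT and higher in ASC in iKO. The part of these marker genes in the metallothionein levels was not tested.

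The balance between the 2 main metallothioneins differed between fresh and cultured libraries. Between WT and iKO it differed mainly in ASC, with 1 library a group and no test. The comparison was made within each library and so is free of any scaling between libraries. Mt2 stood at 1.31 times the level of Mt1 in FISC WT and 1.21 times in FISC iKO. In ASC WT it stood at 0.17 times the level of Mt1, and in ASC iKO at 0.548 times. Mt2 was thus the higher of the pair in both fresh libraries and the lower in both cultured ones. Mt1 and Mt2 have similar coding sequences, and the sources used here do not say how reads matching both were assigned.

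Of the whole set, 3 members were at least 2-fold lower and 1 at least 2-fold higher in ASC than in FISC, in WT among 6 kept members and in iKO among 7. Over all genes in WT, 17.2% were lower and 31% higher, and in iKO 20.6% were lower and 33.7% higher. The median log2 ratio of the members was −1.85 in WT and −0.22 in iKO, against 0.40 and 0.38 over all genes. The splits of all genes depended on the scaling: in WT 3667 were higher and 2027 lower as deposited, against 2574 and 2676 under upper-quartile scaling. In iKO the corresponding counts were 3980 and 2427 against 2749 and 3286. Under that scaling the median over all genes shifted by −0.35 in WT and by −0.43 in iKO, and Mt1, Mt2 and Slc39a14 stayed lower.

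**Figure D3:**
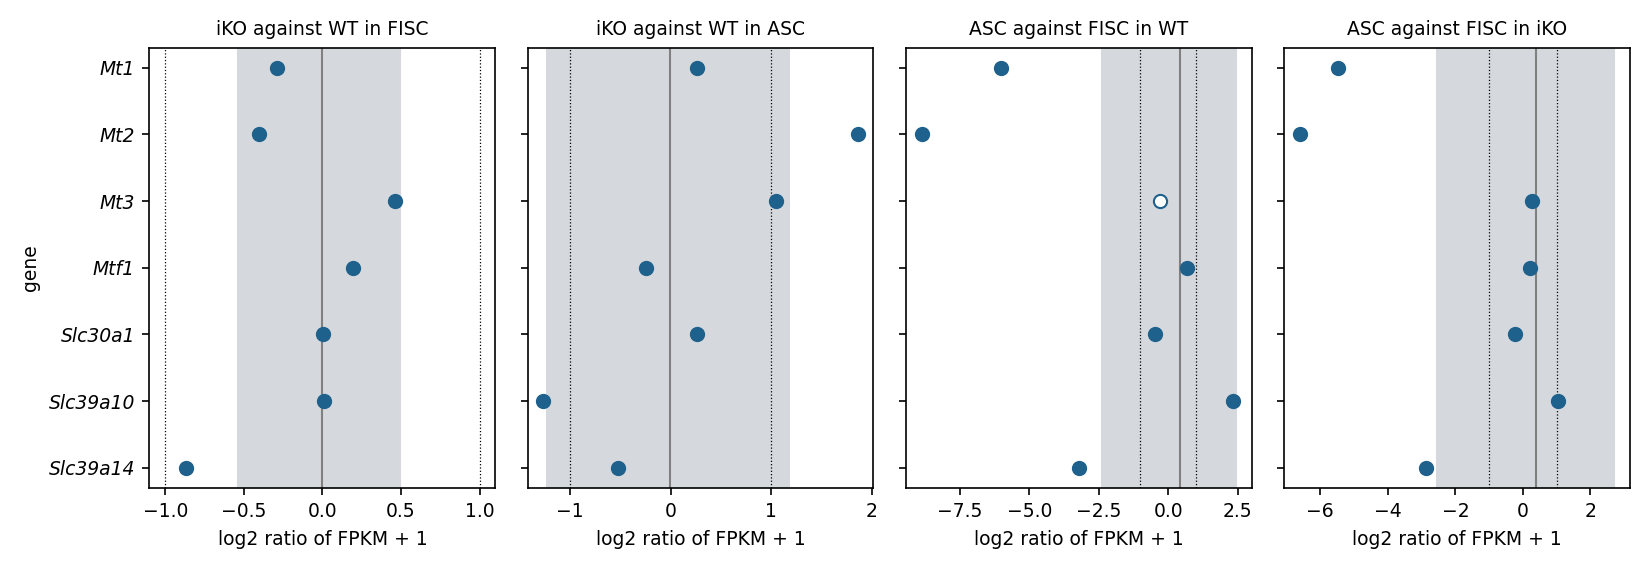
Log2 ratio of FPKM + 1 for the 7 genes in 4 comparisons, with the grey band from the 5th to the 95th percentile of all kept genes, the grey line at their median and dotted lines at 2-fold. The open circle is Mt3 in WT, below 1 FPKM in both libraries, and Mt1, Mt2 and Slc39a14 lie below the band in both activation panels.

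The third metallothionein, Mt3, known mainly from brain, had the lowest level of the 7 genes in each library. It stood at 0.68 FPKM in FISC WT, 1.32 in FISC iKO, 0.369 in ASC WT and 1.82 in ASC iKO. The iKO library was the higher of each pair. Its locus lies 18.5 kb from that of Mt2, which in turn lies 5.52 kb from that of Mt1 (chromosome 8, mm9, Mt3 at 96676507 to 96678048, Mt2 at 96696518 to 96697467 and Mt1 at 96702989 to 96704227). Mt4, the remaining gene of the cluster, was listed at 0 in 3 libraries and at 0.422 FPKM in ASC iKO. The high fresh-cell level was thus measured for Mt1 and Mt2 and not for the other genes of the cluster. The nearest kept genes outside the cluster also moved in different ways. Bbs2, a ciliary protein gene, had a log2 ratio of −0.93 for activation in WT, and Ogfod1, an oxygenase gene, had 1.10. On the other side, Nup93, a nuclear pore gene, had 1.91. Herpud1, an endoplasmic reticulum stress gene, had −3.65, from 621 FPKM in FISC WT to 48.4 in ASC WT. Herpud1 lay 206 kb from the cluster, against 34.3 kb for Nup93, 38.4 kb for Bbs2 and 69.3 kb for Ogfod1.

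The zinc sensor Mtf1 was a low message in each library. It stood at 2.87 FPKM in FISC WT, 3.43 in FISC iKO, 5.13 in ASC WT and 4.16 in ASC iKO. The 4 values lie within 2-fold of each other on the FPKM + 1 scale, although metallothionein levels differed far more between the same libraries. The table gives Mtf1 the same locus (chromosome 4, mm9, 124479793 to 124527974) as 1110065P20Rik, which stood between 15.4 and 44.9 FPKM, so the split of reads between them is uncertain. Mtf1 RNA says nothing of where the protein was in the cell.

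The exporter Slc30a1, which removes zinc across the plasma membrane, did not follow the metallothioneins in size. It stood at 2.57 FPKM in FISC WT, 2.59 in FISC iKO, 1.55 in ASC WT and 2.07 in ASC iKO. The log2 activation ratio was −0.48 in WT and −0.22 in iKO, both within 2-fold. With the median ratio of genes of similar locus length subtracted, the WT value was −1.06 and passed 2-fold. Another symbol at the same listed locus (chromosome 1, mm9, 193717951 to 193737126), 1700034H15Rik, was at 0.0315 FPKM or less.

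The importers Slc39a10 and Slc39a14 moved in opposite directions on activation. Slc39a14 (chromosome 14, mm9, 70703274 to 70751231) stood at 474 FPKM in FISC WT, 259 in FISC iKO, 49.97 in ASC WT and 34.5 in ASC iKO. Both fresh libraries were above both cultured ones, and the WT library was the higher of each pair. It was 9.31-fold lower in ASC than in FISC in WT (log2 ratio −3.22) and 7.32-fold lower in iKO (−2.87). Slc39a10 (chromosome 1, mm9, 46864389 to 46910354) stood at 10.1 FPKM in FISC WT, 10.2 in FISC iKO, 54.1 in ASC WT and 21.9 in ASC iKO. The fresh libraries were nearly equal, and ASC WT was the highest of the 4. Slc39a10 was 4.95-fold higher in ASC than in FISC in WT (log2 ratio 2.31). In iKO it was 2.05-fold higher (1.03), a call that ended under upper-quartile scaling (0.56). Within libraries, Slc39a10 stood at 0.0214 times the level of Slc39a14 in FISC WT and 0.0395 times in FISC iKO, but at 1.08 times in ASC WT and 0.636 times in ASC iKO.

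In freshly isolated cells, where Yy1 RNA was still at 20.1 FPKM in the iKO library, none of the 7 members differed by 2-fold between iKO and WT. Over all 11229 genes 0.677% were higher and 0.721% lower. Slc39a14 had the lowest ratio, 1.83-fold lower in iKO (log2 ratio −0.87), rank 132 from the lowest. Mt2 (−0.40) and Mt1 (−0.29) were also lower in iKO, inside the band from −0.54 to 0.50 that held the middle of all genes between percentiles 5 and 95. Slc39a10 (0.01) and Slc30a1 (0.01) were level, Mtf1 stood at 0.19 and Mt3 at 0.46. Erythroid marker sums were 418 FPKM in WT and 532 in iKO of this pair, and their part in these ratios was not tested.

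In activated cells, 2 of 7 members were at least 2-fold higher in iKO than in WT and 1 was at least 2-fold lower. Over all 11215 genes 8.74% were higher and 8.26% lower. Mt2 was 3.63-fold higher in iKO (11.1 and 42.8 FPKM, log2 ratio 1.86), rank 52 from the highest. Its log2 ratio stayed between 1.19 and 1.94 under the alternatives tried. Mt3 was 2.06-fold higher from 0.369 to 1.82 FPKM, and the call ended when the median of genes of similar locus length was subtracted (0.37). Mt1 stood at 65.2 and 78.1 FPKM, a log2 ratio of 0.26 that turned to −0.42 with that subtraction and to −0.30 with both libraries scaled to the same FPKM sum. The tenth of genes with the shortest loci, which holds all 3 metallothioneins, had a median of 0.67.

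Slc39a10 was 2.40-fold lower in the ASC iKO library (54.1 and 21.9 FPKM, log2 ratio −1.26), rank 511 from the lowest. The ratio stayed between −1.82 and −1.09 under the alternatives, and the genes of similar locus length had a median of −0.17. Slc39a14 was at 49.97 and 34.5 FPKM (−0.52), and with both libraries scaled to the same FPKM sum it also passed 2-fold (−1.08). Mtf1 stood at −0.25 and Slc30a1 at 0.27, each within 2-fold, with signs that changed under centring on locus length (0.07 for Mtf1) or the equal FPKM sum (−0.10 for Slc30a1). Marker sums also differed within this pair. Immune markers summed to 4.52 FPKM in WT and 17.7 in iKO, with 3 of the 4 kept genes at least 2-fold higher in iKO (Cd14 at 2.80 and 9.75 FPKM), while Ptprc was listed at 0 in both libraries. Fibroblast markers summed to 144 FPKM in WT and 64.6 in iKO, with 3 of the 5 kept genes at least 2-fold lower. Of 11 satellite cell markers, 10 had a log2 ratio below 0 and 1 above, with a median of −0.50. Among them, 2 were at least 2-fold lower, against 8.26% of all genes: Pax7 (28.3 and 6.19 FPKM) and Vcam1 (62.2 and 27.6 FPKM). The part of these marker genes in the ratios of Mt2 and Slc39a10 was not tested. The scaling mattered for all genes of this pair: 980 were higher and 926 lower as deposited, against 189 and 2614 with equal FPKM sums, which moved the median of all genes by −0.50. Under that scaling Mt2 and Slc39a10 kept their calls.

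The iKO ratio in ASC minus that in FISC was 2.26 for Mt2 on the log2 scale, above 99.8% of the 10251 genes kept in both pairs, and −1.27 for Slc39a10, above 4.11%. For the other 5 members it ran from −0.44 for Mtf1 to 0.58 for Mt3, against a median of 0.02 over all genes. With 1 library a group, these differences between the states were not tested.

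The other zinc transporters were read from the same tables. Of 22 listed (the remaining SLC30 and SLC39 genes and Mt4), 13 passed 1 FPKM in each comparison, and none differed by 2-fold between iKO and WT in FISC or in ASC, apart from 1 lower gene in ASC with equal FPKM sums. Their median log2 ratio was −0.04 in FISC and −0.12 in ASC, against 0.00 for all genes in each. Over all genes, 0.677% were higher and 0.721% lower in FISC, and 8.74% and 8.26% in ASC. On activation 3 were higher and 1 lower in WT, and 4 were higher and 1 lower in iKO, where upper-quartile scaling left 1 higher and 1 lower. The shares over all genes were 31% higher and 17.2% lower in WT, and 33.7% and 20.6% in iKO. Slc39a1, a plasma membrane importer, was the lower one: 99.1 FPKM in FISC WT, 77.0 in FISC iKO, 39.2 in ASC WT and 33.0 in ASC iKO. Slc39a13 (9.47, 10.4, 32.3 and 28.9 FPKM in the same order) was higher in ASC in both genotypes.

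Slc30a6, whose protein moves zinc into the secretory pathway, was also higher in ASC in both genotypes, with 3.07, 3.34, 11.9 and 13.2 FPKM in the same order. Slc39a11 passed 2-fold in WT alone (4.06 and 9.97 FPKM), with 5.21 and 9.11 in iKO. Slc39a7, which releases zinc from the endoplasmic reticulum, stood at 98.3 and 121 FPKM in WT and passed 2-fold in iKO alone (86.2 and 215). Slc30a5, the partner of Slc30a6 in the secretory pathway, did likewise, with 25.5 and 43.1 FPKM in WT and 29.0 and 59.9 in iKO. For genes past 2-fold in a single genotype, the difference between genotypes was not tested. The importer with the most RNA was thus Slc39a14 in both fresh libraries and Slc39a7 in both cultured ones.

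**Figure D4:**
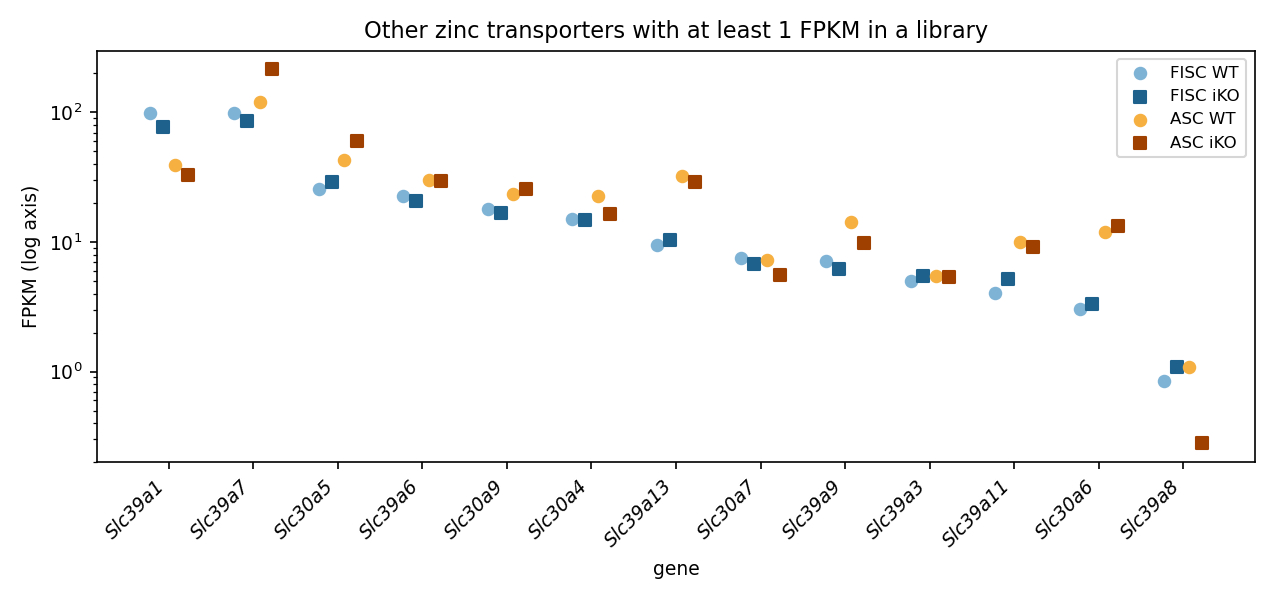
FPKM on a log axis in the 4 RNA libraries for the 13 other SLC30 and SLC39 genes that reached 1 FPKM, ordered by the FISC WT level, 1 point per library. Slc39a1 is lower in the ASC libraries, Slc39a13 and Slc30a6 are higher, and Slc39a7 is highest in ASC iKO.

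Genes of copper and iron handling and of the antioxidant response, and glucocorticoid-induced genes, were set beside the members because their proteins bind the same metals or because the same stimuli induce metallothioneins. Of 11 glucocorticoid-induced genes, 7 were at least 2-fold lower and 0 higher in ASC than in FISC, in WT and in iKO alike. The medians were −1.37 and −1.45. Over all genes, 17.2% were lower and 31% higher in WT, and 20.6% and 33.7% in iKO. The list also counts the receptor gene Nr3c1, which stayed within 2-fold. Among the lower genes, Lcn2 and Sult1a1 were near the 1 FPKM limit, at 1.59 and 1.58 FPKM in FISC WT. Dusp1, a phosphatase gene, went from 354 to 7.63 FPKM in WT and Klf9, a transcription factor gene, from 161 to 9.23. At the other end, Fkbp5, a glucocorticoid receptor co-chaperone, stood at 13.3 and 26.9 FPKM and Tsc22d3 at 15.1 and 20.9, within 2-fold. Of 13 antioxidant and metal-responsive genes kept in WT, 6 were higher and 5 lower. Ndrg1 went from 449 to 10.2 FPKM and Srxn1, a sulfiredoxin, from 414 to 66.7. The glutathione reductase Gsr went from 3.45 to 53.2 FPKM and the cystine transporter Slc7a11 from 0.626 to 10.7.

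Copper genes went both ways on activation in WT, with 4 of 15 higher and 3 lower, against 31% and 17.2% over all genes. Steap4, a metalloreductase, went from 58.0 to 0.0445 FPKM and Cp, ceruloplasmin, from 65.9 to 0.701, while the copper chaperone Cox17 went from 36.8 to 132. Of 15 iron genes 3 were higher and 4 lower, and under upper-quartile scaling 1 and 5. Trf, transferrin, went from 68.3 to 5.76 FPKM and Tfrc, its receptor, from 10.8 to 94.4. Between iKO and WT in FISC no gene of the 4 lists passed 2-fold, and Hmox1, heme oxygenase, had the lowest ratio of the antioxidant list (1352 and 804 FPKM, −0.75). Over all genes 0.677% were higher and 0.721% lower in that pair. In ASC, 5 of 13 copper genes were higher in iKO and 1 was lower, led by Sod1 (526 and 1656 FPKM) and Cox17 (132 and 398). Over all genes in ASC, 8.74% were higher and 8.26% lower. With equal FPKM sums these copper counts were 2 higher and 3 lower, against 189 and 2614 of all 11215 genes. No iron gene passed 2-fold there as deposited, and 4 were lower with equal FPKM sums. Of the antioxidant list Ndrg1 alone passed 2-fold (10.2 and 25.4 FPKM), and with equal FPKM sums 0 were higher and 4 lower. Of 8 glucocorticoid-induced genes kept there, Ddit4, a stress-induced inhibitor of mTOR signalling, was higher (49.5 and 109 FPKM) and Klf9 was lower (9.23 and 3.44). With equal FPKM sums 0 of them were higher and 2 lower.

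Genes with the pattern nearest to a member were found by the distance between log2(FPKM + 1) values over the 4 libraries, each with its own mean subtracted, among 9270 genes that reached 5 FPKM in a library. With 4 points this is a likeness of shape and nothing more. Nearest to Mt1 were Rnf122, Vtn, Sorbs3, Col5a3 and Tnxb, at distances from 0.20 to 0.34. These genes all stood at 1.58 FPKM or less in both ASC libraries, against 65.2 and 78.1 FPKM for Mt1. At such levels the pseudocount of 1 FPKM shrinks their ratios, and their likeness to Mt1 depends on it. Vtn, for example, stood at 68.0 FPKM in FISC WT and 0 in ASC WT. Mt2 was rank 219 for Mt1, at 2.29. Nearest to Mt2 were the heat shock gene Hspa1a (0.77), the immediate early gene Fos (0.92), the chemokine Cxcl1, Fosb and Atf3 (1.34). Fos stood at 913 FPKM in FISC WT, 1253 in FISC iKO, 1.76 in ASC WT and 4.59 in ASC iKO.

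Nearest to Slc39a14 were Tnip1 (0.16), Mmp19, Bach1, Nfkb1 and Fgl2 (0.32). Mmp19 and Fgl2 stood at 0.767 FPKM or less in both ASC libraries, where the pseudocount shrinks their ratios. Nfkb1, an NF-kB subunit, stood at 456, 217, 48.6 and 25.3 FPKM in FISC WT, FISC iKO, ASC WT and ASC iKO. Nearest to Slc39a10 were Cyp26b1 (0.08), Abcc1, Aqr, Gen1 and Usp46 (0.16). Abcc1, a glutathione conjugate exporter, stood at 22.4, 21.1, 108 and 48.4 FPKM in the same order. Cyp26b1, Gen1 and Usp46 stood at 1.36 FPKM or less in both FISC libraries, where the pseudocount shrinks their ratios as well. Nearest to Slc30a1 were Zfp410, Ndufb11, Rab4b, Myl9 and Klhl26, at distances of 0.07 or less.

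**Figure D5:**
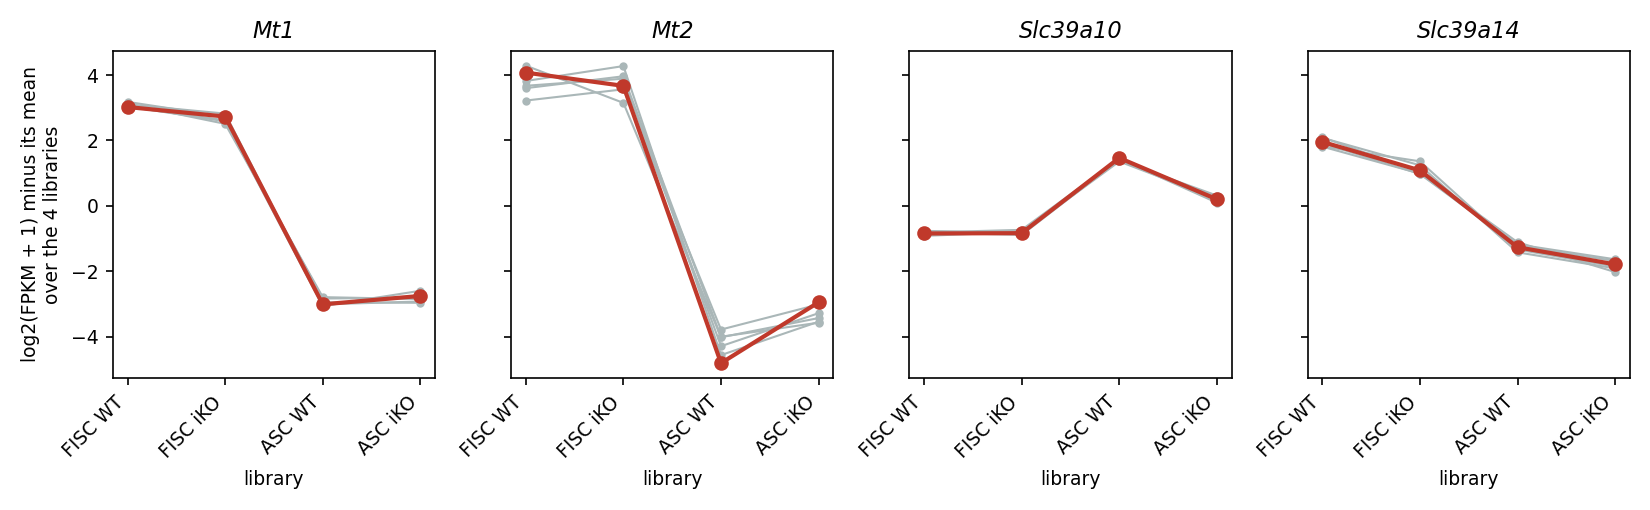
Log2(FPKM + 1) minus its mean over the 4 RNA libraries for 4 members (red) and the 5 genes with the nearest pattern to each (grey), 1 point per library. Mt1, Slc39a10 and Slc39a14 have neighbours at distances of 0.34 or less, and the genes nearest to Mt2 lie at 0.77 to 1.34. The genes nearest to Mt1 stand at 1.58 FPKM or less in both ASC libraries, where Mt1 stands at 65.2 and 78.1.

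No YY1 peak lay within 2 kb of the locus of any of the 7 members in the authors' list of 2031 peaks from ASC, and none within 50 kb. Of all 24312 listed loci, 6.96% had a peak within 2 kb and 17.6% within 50 kb. The nearest peak to a member was 91.9 kb from Slc39a14 (chromosome 14, mm9, 70843152 to 70843299), with the authors' fold of 3.62 and −log10 q of 0. The peak nearest to the metallothioneins lay 658 kb from Mt1, with the authors' fold of 11.8 and −log10 q of 16.9. For Slc30a1 the distance was 309 kb, for Slc39a10 631 kb and for Mtf1 1023 kb. The list comes from 1 immunoprecipitation, and no peak in it shows only that none was called at these loci.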

How the data were processed

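RNA was measured in 4 libraries and YY1 binding in 1 immunoprecipitation with 1 input, each group being 1 library. The authors deposited FPKM per gene in 2 tables, per the file headers. Low FPKM values of at most 0.3 gave only the relative depth of each pair, from the most common ratio, which 24.2% of 1542 FISC genes and 14.0% of 1573 ASC genes met within 1%. The authors also deposited a list of 2031 peaks with a score, a fold over background and −log10 p and −log10 q values. Named in the submitters' processing notes, without roles, are the build mm9 and the tools MACS2 2.1.0, Cufflinks 2.2.1 and TopHat2. Not given in the sources used here are annotation, strand setting and scaling. Each column was assigned by the state of its table and the genotype in its name.

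Log2 ratios used a pseudocount of 1 FPKM, which understates the ratio of low genes, and a gene had to reach 1 FPKM in either library. All genes were computed and the members read from them, with Python 3.11.15, numpy and pandas. The ratio step was run on simulated data with large planted changes in well expressed genes. That run checks the code alone and says nothing of the ratios reported here. FPKM were left as deposited between states, since Mir762 takes 39.8% of the ASC iKO sum. A locus is as the tables list it, with starts counted from 1. Alternatives were upper-quartile scaling, a minimum of 5 FPKM, no minimum, a pseudocount of 0.1, centring within 10 bins of locus length and equal FPKM sums without the highest gene. The last was added for the iKO comparisons after the data were seen. For peaks the windows and a minimum −log10 q of 5 were varied.

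The members and lists were chosen with earlier results of these data known. Named were all members, other SLC30 and SLC39 genes past 2-fold or among the 3 highest in a WT library, and the 2 highest and 2 lowest of each further list with at least 5 FPKM were eligible. The 2 kept genes to each side of the metallothionein cluster and the 5 nearest patterns were also named. Of the marker lists, Schwann cell markers summed to between 6.45 and 125 FPKM and adipocyte markers to between 1.15 and 34.3 FPKM over the 4 libraries. Promoter sequences are from RefSeq (GRCm38.p6) and were never placed on mm9 coordinates.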

Additional observations from a re-analysis of the deposited data

Results flagged for a closer look

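For 4 members the iKO library lay on opposite sides of its WT library in FISC and in ASC. The log2 ratio in ASC minus that in FISC was 2.26 for Mt2 (−0.40 in FISC and 1.86 in ASC), 0.55 for Mt1 (−0.29 and 0.26), −0.44 for Mtf1 (0.19 and −0.25) and −1.27 for Slc39a10 (0.01 and −1.26). Each rests on 1 library a group and was not tested. In ASC, the sign of Mt1 and that of Mtf1 changed with the processing, so for these genes the opposition was not kept under each alternative. The FISC values of Slc39a10 lay so near 0 that its 2 fresh libraries are better called level.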

How the results depend on the processing

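No paired analysis was possible because each group is 1 library, and for the same reason no library could be left out. In ASC, 2 members were higher and 1 lower in iKO. The higher count was 1 with a filter at 5 FPKM, where Mt3 was no longer kept, 1 with centring on locus length and 1 with equal FPKM sums, where the lower count was 2. For activation in iKO, 1 member was higher, and 0 were under upper-quartile scaling, centring on locus length or equal FPKM sums, with Slc39a10 at 0.56, 0.73 and 0.57. For activation in WT, 3 members were lower, and 4 were with centring on locus length, where Slc30a1 stood at −1.06. The counts for FISC and for peaks were 0 under each alternative run. Of 153 single ratios of members under the alternatives, 146 stayed on their side of 2-fold, 5 no longer passed it, 2 came to pass it and none past 2-fold changed sign. Signs of ratios within 2-fold changed in 10 cases, for Mt1, Mtf1 and Slc30a1 between iKO and WT in ASC and for Mt3 and Mtf1 on activation in iKO. A pseudocount of 0.1 gave 194 higher and 217 lower genes in FISC over all genes, against 76 and 81, and a filter at 5 FPKM gave 43 and 60. In ASC, centring on locus length gave 631 and 750, against 980 and 926. On activation the same centring gave 2297 and 2801 in WT and 2666 and 3031 in iKO, and equal FPKM sums gave 2757 and 3283 in iKO. Total depth is unknown, so no detection limit could be set for Mt3 or Mt4.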
